A study of Homo sapiens with 12 samples.

Results

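Serine synthesis and folate one-carbon metabolism are described here through 9 enzymes: PHGDH, PSAT1, PSPH, SHMT1, SHMT2, MTHFD1, MTHFD1L, MTHFD2 and ALDH1L2. They were taken from a count table of 55765 genes by symbol, and each of the 9 was found. The set was chosen by the levels of PHGDH and ALDH1L2, which differed between groups in these libraries, so the levels and differences of those 2 genes are given as descriptions, with no test. The other 7 enzymes are tested.

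The cells were OCI-AML2, an established human acute myeloid leukaemia line, grown as single-cell clones in which doxycycline switches on a construct that encodes MEF2C, a transcription factor. The construct was either S222A, in which a serine is replaced by alanine, or wild type (WT), and the title of the study names MEF2C phosphorylation and chemotherapy resistance. The 4 groups of 3 libraries were S222A induced (doxycycline), S222A uninduced (vehicle), WT induced (doxycycline) and WT uninduced (vehicle). Cultures of 1e6 cells in 3 ml received 600 ng doxycycline or vehicle, with no volume given for the doxycycline amount, and RNA was taken at 48 h. All 4 groups share the parental line and carry a construct. Doxycycline-treated cells without a construct are not among the samples analysed here, so induction and the drug itself cannot be told apart. A difference between constructs cannot be told apart from a difference between clones, since how many clones stood behind each construct is not given. Nothing in the labels describes replicates as separate cultures, so p-values cover the spread between these libraries, which may be technical.

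Cells make serine from the glycolytic intermediate 3-phosphoglycerate in a chain of reactions that begins with PHGDH. The serine hydroxymethyltransferases then move a carbon unit of serine to tetrahydrofolate, giving glycine. In mitochondria SHMT2, MTHFD2 and MTHFD1L turn that unit into formate, which MTHFD1 takes back up in the cytosol for purine and thymidylate synthesis. Leukaemia cells, like other proliferating cells, draw on this route for nucleotides, and drugs such as methotrexate act on the folate cycle.

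Library totals ran between 875710 and 13134791 counts, a 15-fold span, and a floor of 3 counts stood for 0.239 CPM (counts per 1e6 counts) in the deepest and 3.36 CPM in the shallowest library. Each group held 1 library far deeper than its other 2: the 4 deepest had 5412391 to 13134791 counts and the other 8 had 875710 to 4489036. MEF2C, counted without separating construct from endogenous reads, was at 786 to 956 CPM in S222A induced libraries, 605 to 802 in S222A uninduced, 674 to 844 in WT induced and 645 to 817 in WT uninduced. Its difference passed the test in neither construct (log2 fold change 0.34 ± 0.16 (SE), adjusted p = 0.285 for S222A and 0.08 ± 0.16, adjusted p = 1 for WT, edgeR). Of 12 myeloid leukaemia markers, 10 reached 10 counts in some library, CEBPA was at 0 in every library and CD34 had at most 1 count. Their summed level was 589 to 606 CPM in S222A induced libraries, against 1220 to 1360 CPM in S222A uninduced libraries. It was 636 to 802 CPM in WT induced libraries, against 761 to 941 CPM in WT uninduced libraries. Over all libraries CTSG and AZU1 held most of these counts (18947 and 10545), so the shift of the sum need not hold for the other markers. The part of that shift in the enzyme levels was not tested. Summed markers reached at most 0.223 CPM for erythroid cells, 3.16 CPM for T cells, 5.27 CPM for fibroblasts, 11.1 CPM for B cells (CD79B and PAX5 the most counts) and 38.7 CPM for epithelial cells, nearly all of it CDH1, with EPCAM, KRT18 and KRT19 at 0.

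All 9 enzymes passed the filter on low counts, which left 11474 genes for testing. Their counts per library ranged between 5 for ALDH1L2 and 4041 for MTHFD2. Levels can be set against each other only per length, as CPM per kilobase of exon. On that scale, the median over the 12 libraries was 66.2 for MTHFD2, 43.2 for SHMT2, 28.9 for PSAT1, 28.7 for PHGDH, 18.8 for SHMT1, 14.6 for MTHFD1L, 10.9 for MTHFD1, 6.28 for PSPH and 1.43 for ALDH1L2. The ranges over libraries of neighbours in this order overlapped for every pair down to PSPH, and PSPH, at 4.13 to 11.3 CPM per kilobase, also overlapped with ALDH1L2, at 0.367 to 5.05. By median alone, the mitochondrial pair MTHFD2 and SHMT2 headed the order, and ALDH1L2 came last.

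PHGDH, which catalyses the entry step of serine synthesis, was at 32.6, 39.7 and 39.1 CPM in S222A induced libraries, 63.9, 68.9 and 56.9 CPM in S222A uninduced, 83.6, 90.8 and 88.7 CPM in WT induced, and 96.4, 88.5 and 129.9 CPM in WT uninduced. All 3 S222A induced libraries were below the 9 others, the S222A uninduced libraries came next, and the WT groups overlapped. Its level was 1.71-fold lower in S222A induced than in S222A uninduced libraries (log2 fold change -0.77 ± 0.17, SE) and 2.35-fold lower in S222A induced than in WT induced libraries (-1.23 ± 0.17). Without doxycycline it was already 1.65-fold lower in S222A than in WT libraries (-0.72 ± 0.17). Within WT, induction gave -0.26 ± 0.17, and the difference between the induction effects of S222A and WT was -0.51 ± 0.24. Within the deepest libraries S222A induction gave -0.71 and S222A against WT, both induced, gave -1.09, while within the other 8 they gave -0.8 and -1.31. The uninduced difference was -0.47 within the deepest and -0.85 within the others, and WT induction gave -0.08 and -0.33. These are the values that led to its choice.

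The promoter of PHGDH is shown because the gene headed the choice of the set, and it was searched, with those of the other enzymes, for 2 motifs. One was the E-box CACGTG, the site of MYC and related factors, which reads the same on both strands. The other was the C/EBP-ATF composite TGATGNAA, the site through which ATF4 acts on many amino acid genes. It was read on both strands, and the motifs share no letters in the matches found. RefSeq windows (GRCh38.p14, 250 bases before to 50 after each start) were at hand for 6 of the 9 enzymes. The 250 bases before the PHGDH start, chr1:119711684-119711933 on the plus strand, held neither motif and are in lower case throughout:
PHGDH: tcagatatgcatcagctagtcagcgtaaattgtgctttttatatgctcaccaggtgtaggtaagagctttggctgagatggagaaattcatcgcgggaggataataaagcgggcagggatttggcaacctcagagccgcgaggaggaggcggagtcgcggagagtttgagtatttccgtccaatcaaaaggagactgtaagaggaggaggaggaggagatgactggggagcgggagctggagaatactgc

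**Figure D1:**
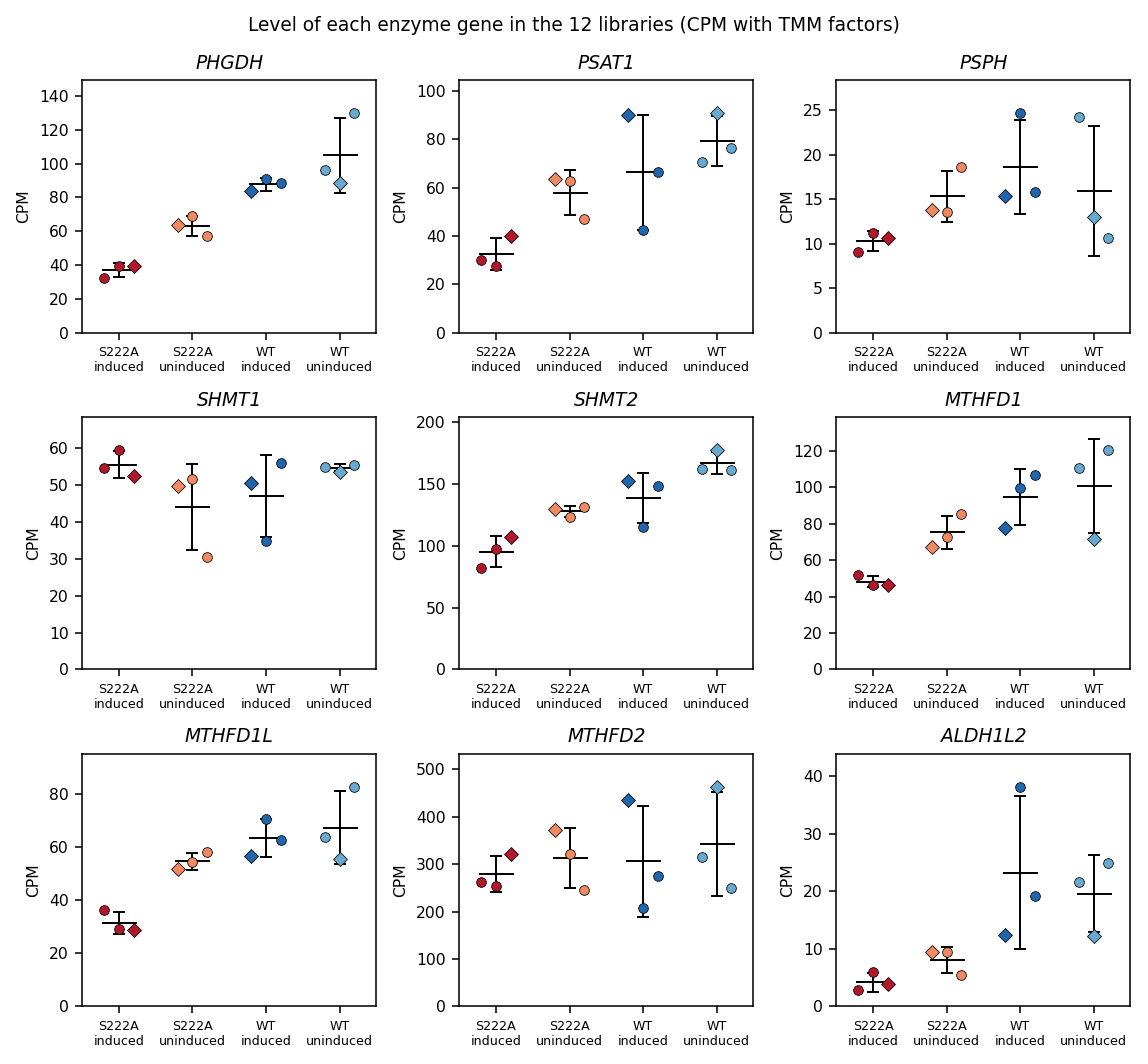
Level of each enzyme in CPM on a linear axis, in S222A induced, S222A uninduced, WT induced and WT uninduced libraries. Points are libraries, diamonds the deepest library of each group, and bars the mean ± SD (n = 3); PHGDH averaged 37.1 CPM in S222A induced libraries, against 63.3 CPM in S222A uninduced libraries, and MTHFD2 overlaps across all 4 groups.

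PSAT1, the transaminase of the middle step, was at 30.1, 27.4 and 40.0 CPM in S222A induced libraries and 63.5, 62.8 and 47.1 CPM in S222A uninduced. It was at 90.0, 42.6 and 66.3 CPM in WT induced libraries and 70.7, 90.8 and 76.4 CPM in WT uninduced. The S222A induced values lay below all others, while the WT induced group spanned more than a doubling within itself. PSAT1 fell 2.08-fold in S222A induced relative to WT induced libraries (log2 fold change -1.06 ± 0.24, adjusted p = 0.0234). That call was lost without S222A induced replicate 1 (adjusted p = 0.106), S222A induced replicate 2 (0.107), WT induced replicate 1 (0.0808) or WT induced replicate 3 (0.0745). Against S222A uninduced libraries the difference was -0.84 ± 0.25 and missed the threshold (adjusted p = 0.0751), although it passed with DESeq2 (adjusted p = 0.0462), without the filter on low counts (0.0271), with a term for the deepest library of each group (0.000955) and without those libraries (0.0235). In each of the 4 groups the deepest library had the highest PSAT1 level (log2 0.40 ± 0.11, deepest against the others). The part of depth in the result was not tested, and the S222A to WT difference between induced libraries was -1.17 within the deepest and -0.92 within the others.

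PSPH, the phosphatase that releases serine at the end of the chain, was the lowest of the serine synthesis enzymes per kilobase. It was at 9.0, 11.2 and 10.6 CPM in S222A induced libraries, 13.8, 13.5 and 18.6 CPM in S222A uninduced, 15.4, 24.7 and 15.8 CPM in WT induced and 24.2, 12.9 and 10.6 CPM in WT uninduced. The S222A induced libraries were below the S222A uninduced and WT induced ones, but overlapped with WT uninduced. Neither difference passed the test (log2 fold change -0.52 ± 0.31, adjusted p = 0.401 against S222A uninduced, and -0.78 ± 0.31, adjusted p = 0.162 against WT induced). With as few as 17 counts in a library, smaller differences could not be resolved for PSPH.

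SHMT2, the mitochondrial serine hydroxymethyltransferase, was at 81.7, 97.2 and 107.0 CPM in S222A induced libraries, 130.1, 123.1 and 131.4 CPM in S222A uninduced, 152.9, 115.5 and 148.2 CPM in WT induced and 162.5, 177.5 and 161.8 CPM in WT uninduced. Again the S222A induced libraries were below all others. The difference from WT induced libraries was -0.55 ± 0.15 and missed the threshold by a narrow margin (adjusted p = 0.0518). It passed with DESeq2 (adjusted p = 0.0128), limma-voom (0.0332), a term for the deepest library of each group (0.00273), other scalings (0.0459 and 0.0448) and without WT induced replicate 2 (0.0371). The difference from S222A uninduced libraries was -0.42 ± 0.15 (adjusted p = 0.147), which passed with the same term (adjusted p = 0.0255).

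SHMT1, the cytosolic counterpart, did not follow that order. It was at 54.7, 59.5 and 52.5 CPM in S222A induced libraries, 49.9, 51.7 and 30.7 CPM in S222A uninduced, 50.6, 34.8 and 56.1 CPM in WT induced and 55.0, 53.7 and 55.6 CPM in WT uninduced. The S222A induced libraries were above the S222A uninduced ones by a narrow gap and overlapped with WT induced (log2 fold change 0.29 ± 0.20, adjusted p = 0.49, and 0.20 ± 0.20, adjusted p = 0.638). The lowest values of SHMT1, 30.7 and 34.8 CPM, came from the 2 shallowest libraries, where they rest on 28 and 31 counts.

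The ratio of SHMT2 to SHMT1 counts within a library needs no normalization between libraries. It was 1.49, 1.63 and 2.04 in S222A induced libraries, 2.61, 2.38 and 4.29 in S222A uninduced, 3.02, 3.32 and 2.64 in WT induced and 2.95, 3.31 and 2.91 in WT uninduced. The mean was 1.72 ± 0.282 in S222A induced libraries, against 3.09 ± 1.04 in S222A uninduced, and 3.00 ± 0.34 in WT induced libraries, against 3.06 ± 0.216 in WT uninduced (SD, n = 3 each). All 3 S222A induced libraries were below the 9 others. The ratio was chosen after the values had been seen and is given with no test; it shows unequal levels of the pair, not which enzyme differed.

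**Figure D2:**
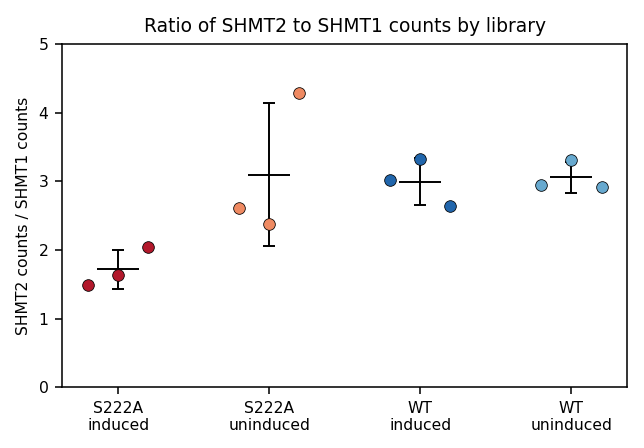
Ratio of SHMT2 to SHMT1 counts in each library of the 4 groups, with the mean ± SD (n = 3). The S222A induced libraries lie between 1.49 and 2.04 and the other 9 between 2.38 and 4.29.

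MTHFD1L, the mitochondrial enzyme that releases formate, had the smallest adjusted p of the tested members. It was at 36.4, 29 and 28.9 CPM in S222A induced libraries, 51.8, 54.2 and 58.0 CPM in S222A uninduced, 56.4, 70.6 and 62.6 CPM in WT induced and 63.6, 55.6 and 82.5 CPM in WT uninduced. The S222A induced libraries lay below all 9 others with no overlap, and the other 3 groups overlapped with each other. MTHFD1L fell 2.00-fold in S222A induced relative to WT induced libraries (log2 fold change -1 ± 0.18, adjusted p = 0.00738), and this held under all 15 alternatives, with an adjusted p of at most 0.0402.

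MTHFD1L also fell 1.74-fold in S222A induced relative to S222A uninduced libraries (-0.80 ± 0.18, 95% interval of the fold 1.32 to 2.29, adjusted p = 0.0286). The call held without S222A induced replicate 1 (adjusted p = 0.0458). It was lost without S222A induced replicate 2 (0.118) or 3 (0.109), or S222A uninduced replicate 1 (0.0715), 2 (0.0891) or 3 (0.0599). The log2 fold change stayed between -0.91 and -0.73 throughout those 6 fits. MTHFD1L was lowest in the deepest library of each group (log2 -0.22 ± 0.11), and its S222A induction difference was -0.84 within the deepest libraries and -0.78 within the others. The interaction, the induction effect in S222A minus that in WT, was -0.70 ± 0.26 for MTHFD1L, with an unadjusted p of 0.0173 and an adjusted p of 0.641.

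MTHFD1, the cytosolic enzyme with 3 activities that takes formate up again, was at 52.0, 46.6 and 46.5 CPM in S222A induced libraries, 67.4, 73.1 and 85.4 CPM in S222A uninduced, 77.5, 99.8 and 106.8 CPM in WT induced and 110.5, 71.5 and 120.5 CPM in WT uninduced. Once more the S222A induced libraries were below all others. MTHFD1 fell 1.95-fold relative to WT induced libraries (log2 fold change -0.97 ± 0.21, adjusted p = 0.0156). The call was lost without S222A induced replicate 2 (adjusted p = 0.0648) or 3 (0.0581) or WT induced replicate 3 (0.0756). Against S222A uninduced libraries the difference was -0.63 ± 0.21 (adjusted p = 0.106), which passed with a term for the deepest library of each group (adjusted p = 0.00429) and without those libraries (0.0475). MTHFD1 was lowest in the deepest library of every group (log2 -0.35 ± 0.10), and the part of depth was not tested; between induced libraries the S222A to WT difference was -0.74 within the deepest and -1.07 within the others.

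Of the 6 enzymes with a window, those of MTHFD1 and MTHFD1L held a motif, so their sequences are shown with the motif in capitals. The window of PSAT1 held neither motif. The 250 bases before the MTHFD1 start are chr14:64388103-64388352, plus strand, with an E-box at 15 to 10 bases before the start. For MTHFD1L, 3 of 4 RefSeq windows held both motifs, and only the 30 bases around each are printed, chr6:150866320-150866349 for the E-box and chr6:150866346-150866375 for the composite, plus strand (GRCh38.p14, RefSeq):
MTHFD1: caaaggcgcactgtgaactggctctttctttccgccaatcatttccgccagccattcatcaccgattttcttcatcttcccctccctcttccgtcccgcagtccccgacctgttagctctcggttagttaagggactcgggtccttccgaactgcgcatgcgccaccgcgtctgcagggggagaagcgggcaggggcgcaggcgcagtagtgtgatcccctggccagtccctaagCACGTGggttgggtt
MTHFD1L E-box: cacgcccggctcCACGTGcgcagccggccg
MTHFD1L composite: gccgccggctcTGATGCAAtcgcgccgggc

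Of 35116 RefSeq windows of 300 bases, 7.26% held CACGTG and 3.62% held TGATGNAA on either strand. The windows of SHMT1, MTHFD2 and PHGDH, like that of PSAT1, held neither. A match is a string of letters in this window and says nothing about binding in these cells.

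MTHFD2, the mitochondrial dehydrogenase and cyclohydrolase between SHMT2 and MTHFD1L, had the highest level of the set and no difference that could be told from the spread. It was at 263, 254 and 322 CPM in S222A induced libraries, 372, 322 and 246 CPM in S222A uninduced, 435, 209 and 274 CPM in WT induced and 316, 463 and 249.6 CPM in WT uninduced. All 4 groups overlapped. The log2 fold change was -0.17 ± 0.28 against S222A uninduced libraries (adjusted p = 0.824) and -0.14 ± 0.28 against WT induced (adjusted p = 0.844). The 95% interval of the difference from WT induced libraries was -0.74 to 0.46. Within each group the highest MTHFD2 value came from the deepest library (log2 0.56 ± 0.11, deepest against the others), a larger span than between any pair of group means. The S222A to WT difference between induced libraries was -0.43 within the deepest libraries and 0.10 within the others, so its direction was not fixed.

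ALDH1L2, the mitochondrial enzyme that oxidises formyl-tetrahydrofolate and yields NADPH, was the least abundant. It was at 2.77, 6.02 and 3.91 CPM in S222A induced libraries (8, 27 and 49 counts), 9.37, 9.44 and 5.48 CPM in S222A uninduced (78, 23 and 5 counts), 12.4, 38.1 and 19.2 CPM in WT induced (85, 34 and 73 counts) and 21.7, 12.2 and 24.9 CPM in WT uninduced (43, 63 and 61 counts). Every S222A library was below every WT library, and within each construct the induced and uninduced libraries overlapped. The level was 4.94-fold lower in S222A induced than in WT induced libraries (log2 fold change -2.30 ± 0.44) and 2.23-fold lower in S222A than in WT libraries without doxycycline (-1.16 ± 0.43). Induction gave -1 ± 0.45 in S222A and 0.14 ± 0.41 in WT. In both WT groups the deepest library was the lowest. The difference between induced S222A and WT libraries was -1.67 within the deepest libraries and -2.71 within the others, and the uninduced difference was -0.38 within the deepest and -1.64 within the others.

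**Figure D3:**
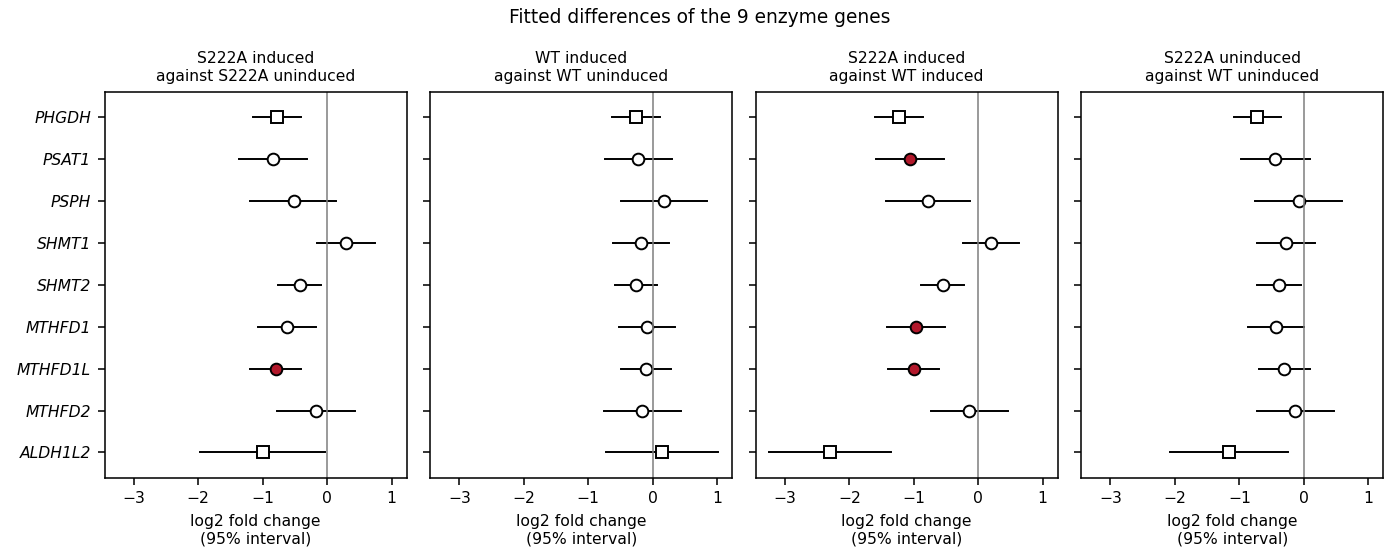
Log2 fold change of each enzyme with its 95% interval for S222A induced against S222A uninduced, WT induced against WT uninduced, S222A induced against WT induced, and S222A uninduced against WT uninduced. Filled circles passed an adjusted p of 0.05, open circles did not, and open squares are PHGDH and ALDH1L2, chosen for their differences; the intervals of SHMT1 and MTHFD2 include 0 in each panel.

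Over the 7 tested enzymes, 3 fell in S222A induced relative to WT induced libraries (PSAT1, MTHFD1 and MTHFD1L), none rose, and 4 did not pass. Over all genes 6.34% were called in that comparison, 3.73% higher and 2.61% lower. The 7 had a median log2 fold change of -0.78, against 0.00 for all genes tested. In S222A induced relative to S222A uninduced libraries 1 of the 7 fell (MTHFD1L), with 4.45% of all genes called, 2.8% higher and 1.66% lower, and the median was -0.52, against 0.01 for all genes. In each of these comparisons 5 of the 7 lay wholly below, where 12.9% of all genes did so relative to WT induced and 13% relative to S222A uninduced libraries. SHMT1 lay wholly above in S222A induced relative to S222A uninduced libraries, as did 14.4% of all genes. The share of all genes with the S222A induced libraries below those of every other group was not counted. The comparisons share the S222A induced libraries, so their values are not separate evidence.

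Without doxycycline, 0 of the 7 enzymes were called between S222A and WT libraries by edgeR, DESeq2 or limma-voom, and 1, SHMT2, was below an unadjusted p of 0.05 (log2 fold change -0.39 ± 0.15, adjusted p = 0.587). Of all genes 0.392% were called there. PSAT1, SHMT1 and SHMT2 lay wholly below, as did 6.1% of all genes, and the median of the 7 was -0.30, against 0.00 for all genes. The 7 tested members had log2 fold changes between -0.44 (PSAT1) and -0.07 (PSPH).

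Induction of WT MEF2C called 0 of the 7 with edgeR, DESeq2 or limma-voom, and 0 were below an unadjusted p of 0.05. The test called 0.00872% of all genes, 1 gene in all. The log2 fold changes ran between -0.26 ± 0.15 for SHMT2 and 0.18 ± 0.31 for PSPH. SHMT2 lay wholly below in WT induced libraries, as did 2.98% of all genes. A direct test of whether the S222A and WT induction effects differed called 9 genes, 0.0784% of all, and 0 of the 7 enzymes, as did DESeq2 and limma-voom for the enzymes. Of the 7, only MTHFD1L was below an unadjusted p of 0.05. An effect of S222A induction that differs from that of WT was therefore not detected for any of the 7 tested enzymes.

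The enzymes with the closest patterns over the 12 libraries were MTHFD1 and MTHFD1L (Pearson r of log2 CPM 0.95) and PSAT1 and SHMT2 (0.93). PHGDH had r of 0.92 with MTHFD1L, 0.91 with ALDH1L2 and 0.90 with MTHFD1. SHMT1 stood apart from the other enzymes, and MTHFD2 and PSPH did so only in part. PSPH had r of 0.64 with ALDH1L2 and 0.63 with MTHFD1, and MTHFD2 had 0.63 with PSAT1. The r ran between -0.57 and 0.38 for SHMT1, between -0.19 and 0.63 for MTHFD2 and between -0.57 and 0.64 for PSPH. Among 8430 other genes with a mean of at least 10 CPM, those most like PHGDH were PM20D2 (r = 0.98), PCCB, KIF17, IFT57 and PUS1 (0.97 each). Those most like ALDH1L2 were TTF2 and CENPK (0.97 each), YWHAE, RP11-61A14.3 and CCDC138 (0.96 each). These are descriptions over libraries that share 4 groups and a depth pattern.

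Genes around the route were read from 7 lists: folate cycle partners, glycine cleavage, the methionine cycle and transsulfuration, de novo purine synthesis, serine transport and use, ATF4 targets, and lower glycolysis. Among folate cycle partners 11 of 13 were tested. Relative to WT induced libraries, S222A induced libraries had more FPGS, which adds the glutamate tail that keeps folates in the cell (log2 fold change 0.75 ± 0.21, adjusted p = 0.049). They had less GGH, which removes that tail (-0.72 ± 0.19, adjusted p = 0.0452), and less SLC25A32, the mitochondrial folate carrier (-0.55 ± 0.15, adjusted p = 0.0497). Over all genes 3.73% were called higher and 2.61% lower in that comparison. FPGS averaged 161 ± 12.4 CPM in S222A induced and 94.6 ± 16.6 CPM in WT induced libraries (SD, n = 3 each). GGH averaged 33.9 ± 0.661 CPM in S222A induced and 55.5 ± 3.43 CPM in WT induced libraries. These 3 calls were at the edge of the threshold: leaving out any 1 of the 6 libraries ended those of FPGS and GGH, with an adjusted p of 0.0528 to 0.171 for FPGS and 0.0704 to 0.153 for GGH. The SLC25A32 call held without WT induced replicate 2 (adjusted p = 0.0394) and was lost when any of the other 5 was left out (0.0821 to 0.199).

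All 10 genes of de novo purine synthesis, which uses formyl-tetrahydrofolate, were tested. PAICS and PFAS fell in S222A induced relative to WT induced libraries and 8 did not pass, with a median log2 fold change of -0.69 and all 10 values negative. Over all genes 2.61% were called lower there, with a median of 0.00. In that comparison all 10 had an unadjusted p under 0.05 with edgeR, as did 2428 of the 11474 genes tested. DESeq2 called 5 of the 10 and limma-voom 3. PAICS averaged 145 ± 21.4 CPM in S222A induced and 299 ± 63 CPM in WT induced libraries (SD, n = 3 each; log2 fold change -1.04 ± 0.21, adjusted p = 0.0122). PFAS averaged 21.6 ± 2.04 CPM in S222A induced and 36.7 ± 4.42 CPM in WT induced libraries (-0.77 ± 0.20, adjusted p = 0.0405). The PAICS call was lost without S222A induced replicate 3 (adjusted p = 0.0554) or WT induced replicate 3 (0.053), and that of PFAS when any 1 of the 6 libraries was left out (0.0534 to 0.158). Relative to S222A uninduced libraries the median was -0.50, against 0.01 for all genes, and 0 of the 10 passed, although 7 were below an unadjusted p of 0.05 and DESeq2 called 4 and limma-voom 3.

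In serine transport and use, 9 of 10 genes were tested, and 2 rose and 1 fell in S222A induced relative to WT induced libraries, where 3.73% of all genes were called higher and 2.61% lower. SLC1A4, a plasma membrane carrier of serine and other neutral amino acids, averaged 94.9 ± 4.9 CPM in S222A induced and 58.5 ± 8.5 CPM in WT induced libraries (SD, n = 3 each; log2 fold change 0.71 ± 0.17, adjusted p = 0.0267). SFXN1, which carries serine into mitochondria, averaged 84.8 ± 1.34 CPM in S222A induced and 121 ± 5.35 CPM in WT induced libraries (-0.51 ± 0.13, adjusted p = 0.0368). SDSL, a serine dehydratase-like gene, was at 14.2, 10.9 and 11.6 CPM in S222A induced libraries and 3.51, 0 and 0.789 CPM in WT induced (2.57 ± 0.52, adjusted p = 0.0122); its WT induced values rest on 24, 0 and 3 counts. The size of that difference rests on WT induced replicate 1, without which it was 4.22, and the SDSL call was lost without WT induced replicate 3 (adjusted p = 0.0678). The SFXN1 call was lost when any 1 of the 6 libraries was left out (0.0601 to 0.142). That of SLC1A4 held only without WT induced replicate 1 (0.043) and was otherwise lost (0.0555 to 0.137).

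ATF4, the stress-responsive factor that drives serine synthesis genes in many cells, averaged 229 ± 15.8 CPM in S222A induced, 273 ± 22.3 CPM in S222A uninduced, 295 ± 25.9 CPM in WT induced and 291 ± 42.9 CPM in WT uninduced libraries (SD, n = 3 each). It passed no comparison (adjusted p between 0.18 and 1). The S222A induced values, 215 to 246 CPM, lay below all others, of which the lowest was 249 CPM. Relative to WT induced libraries the log2 fold change was -0.37 ± 0.15 (edgeR, unadjusted p = 0.0298). Of its 14 listed targets outside the set, 11 were tested, and those that passed moved in opposite directions. Relative to WT induced libraries ATF4 and these 11 had a median of -0.39, against 0 for all genes. Of the 12 values, 8 were below 0 and 4 above. Among them 7 had an unadjusted p under 0.05 (edgeR), in either direction, as did 2428 of 11474 genes. TRIB3, a pseudokinase induced by ATF4, was at 21.8, 19.4 and 28.7 CPM in S222A induced libraries, 62.9, 54.2 and 47.1 CPM in S222A uninduced, 52.5, 44.8 and 40.8 CPM in WT induced and 45.4, 67 and 63.7 CPM in WT uninduced. TRIB3 fell relative to S222A uninduced libraries (log2 fold change -1.24 ± 0.21, adjusted p = 0.00577) under all 15 alternatives and relative to WT induced libraries (-0.97 ± 0.21, adjusted p = 0.0174), where the call was lost without S222A induced replicate 1 (0.0807) or 2 (0.0818) or WT induced replicate 1 (0.0575).

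SLC7A11, the cystine and glutamate exchanger, rose 4.56-fold in S222A induced relative to WT induced libraries (log2 fold change 2.19 ± 0.21, adjusted p = 5.48e-05) and 3.36-fold in S222A relative to WT libraries without doxycycline (1.75 ± 0.21, adjusted p = 0.00169), where 0.34% of all genes were called higher. It averaged 118 ± 4.15 CPM in S222A induced and 25.8 ± 1.86 CPM in WT induced libraries (SD, n = 3 each). VLDLR, a lipoprotein receptor, rose in S222A induced relative to S222A uninduced (1.34 ± 0.19, adjusted p = 0.0015) and WT induced libraries (1.33 ± 0.19, adjusted p = 0.00129). The tested targets thus held 1 gene higher and 1 lower under S222A induction, where 2.8% of all genes were called higher and 1.66% lower. Between the induced groups they held 2 higher and 1 lower, where 3.73% and 2.61% of all genes were.

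MYC, a transcription factor that binds E-boxes and drives nucleotide synthesis genes, averaged 90.4 ± 8.18 CPM in S222A induced, 165 ± 96.9 CPM in S222A uninduced, 249 ± 52.7 CPM in WT induced and 290 ± 43.3 CPM in WT uninduced libraries (SD, n = 3 each). The lowest MYC value of all 12 libraries, 53.7 CPM, was that of S222A uninduced replicate 3, the shallowest library of its group (930960 counts). In that library PSPH, SHMT2, MTHFD1 and MTHFD1L had their highest levels within the group. PHGDH, PSAT1, SHMT1, MTHFD2 and ALDH1L2 had their lowest levels within the group there. A relation of MYC to the enzymes was not tested. MYC fell in S222A induced relative to WT induced libraries (log2 fold change -1.47 ± 0.38, adjusted p = 0.0389), but the call was lost whichever of the 6 libraries was left out (adjusted p = 0.0518 to 0.148). In the S222A uninduced group MYC ran up to 231 CPM, so that it spanned the S222A induced group, and the S222A induction difference did not pass (-0.89 ± 0.38, adjusted p = 0.217).

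Glycolysis makes 3-phosphoglycerate, from which PHGDH draws, through ALDOA, GAPDH and PGK1, and uses it through PGAM1, ENO1 and PKM. Of these 6 genes 2 fell in S222A induced relative to WT induced libraries, where 2.61% of all genes did: ENO1, which averaged 508 ± 34.2 CPM in S222A induced and 737 ± 99.2 CPM in WT induced libraries (log2 fold change -0.54 ± 0.15, adjusted p = 0.0492), and GAPDH (-1.02 ± 0.21, adjusted p = 0.0125). The ENO1 call was lost when any 1 of the 6 libraries was left out (adjusted p = 0.0628 to 0.199), and that of GAPDH without S222A induced replicate 1 (0.0638) or 2 (0.0608) or WT induced replicate 1 (0.0521). GAPDH, at 21.4 ± 2.15 CPM in S222A induced and 42.7 ± 12.2 CPM in WT induced libraries (SD, n = 3 each), is uncertain, since near-identical copies of it exist in the genome and whether they share its reads was not tested. In glycine cleavage and in the methionine cycle, 3 of 4 and 6 of 9 genes were tested and 0 passed any comparison with edgeR; in S222A induced relative to WT induced libraries 0 and 1 of them were below an unadjusted p of 0.05, and DESeq2 called 1 methionine cycle gene. ALDH1L1, the cytosolic counterpart of ALDH1L2, had at most 1 count in any library.

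**Figure D4:**
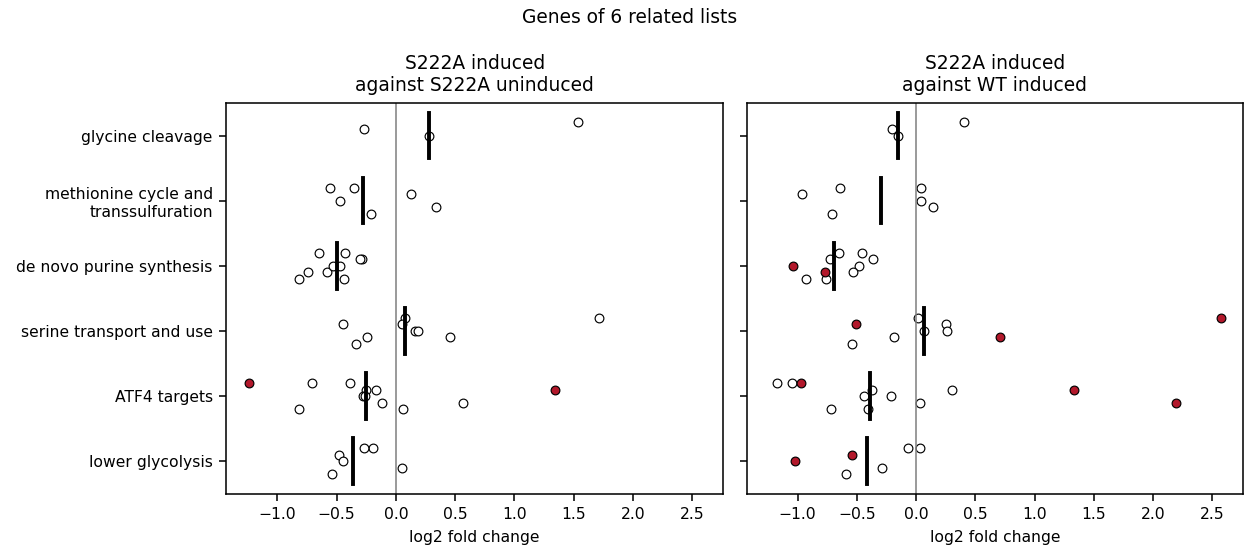
Log2 fold change of each tested gene of 6 related lists, folate cycle partners left out, for S222A induced against S222A uninduced and S222A induced against WT induced. Dots are genes, filled where the adjusted p was under 0.05, and the vertical bar is the list median; all 10 purine synthesis genes lie below 0, with medians of -0.50 and -0.69.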

How the data were processed

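The 12 RNA libraries used a TruSeq kit, per the labels' protocols. Whole-number read counts by gene symbol were deposited by the authors in 1 unnormalized table. Per the submitters' processing notes, reads were handled with STAR 2.4 and HTSeq 0.6.1, DESeq2 is also listed, and the build was hg19; the strand setting is not given in the sources used here, so antisense reads cannot be told apart. Columns were matched to samples by the descriptions in the labels, and the S222A columns do not carry S222A in their names.

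Counts were fitted with edgeR 4.0.16 (TMM, filterByExpr with a minimum count of 10, robust quasi-likelihood test, a mean per group over all 12 libraries). Benjamini-Hochberg adjustment ran over 11474 genes, holding 99.47% of counts, and calls were made at 0.05. The biological coefficient of variation was 24.8%. DESeq2 1.42.0 and limma-voom 3.58.1 (R 4.3.3), other scalings, no filter, a replicate block, depth terms and leaving out libraries were alternatives. Scripts were tested on simulated counts. Floors and counts cover counting error only. Libraries of a group differed beyond sampling noise in each pair (chi-square per degree of freedom 2.64 to 35.22). CPM used TMM-scaled library sizes, except for the summed markers, where unscaled library totals were used. Exon lengths came from GENCODE.

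The members and lists were chosen with earlier results of these data known. Named genes were the 9 enzymes, MYC, ATF4, called genes of the lists (at most 4 a list and comparison, by smallest adjusted p) and the 5 genes most like PHGDH or ALDH1L2 over the libraries. Of the related lists, 1 gene is not reported here.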

Additional observations from a re-analysis of the deposited data

How the results depend on the processing

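With 3 libraries a group and as few as 5 counts of ALDH1L2 or 17 of PSPH in a library, depth limits what can be resolved for the rarer enzymes, and each group holds 1 library deeper than its others, within a 15-fold span over the 12. Of the 7 tested enzymes, 1 was called for S222A induction; DESeq2 called 2, the replicate block 0, a term for the deepest libraries 4 (PSAT1, SHMT2, MTHFD1 and MTHFD1L), the fit without those libraries 2 (PSAT1 and MTHFD1), and leaving out single libraries between 0 and 1. The induced S222A to WT comparison called 3, and between 1 and 4 with single libraries left out. The other comparisons called 0 throughout. Whether the replicate numbers pair the libraries could not be told. Over 18 same-number pairs the correlation ran between -0.53 and 0.64, and 0 of 12 libraries correlated best with their own number. The 4 deepest libraries, which do not all share a number, correlated at 0.61 to 0.76 with each other, so depth could mask a pairing. Under the replicate block MTHFD1L for S222A induction had an adjusted p of 0.0727 and PSAT1 between induced groups 0.065, and all genes called fell to 235 and 350, against 511 and 727. With the induced groups alone, 482 genes were called, and PSAT1 had an adjusted p of 0.0655. Over all alternatives the genes called ranged between 187 and 2052 for S222A induction (511), 249 and 2480 between induced groups (727), 9 and 218 between uninduced groups (45), 0 and 147 for the difference of induction effects (9) and 0 and 6 for WT induction (1), the highest always with a term for the deepest libraries. Uncalled values changed sign. For MTHFD2 the difference of induction effects was 0.02 without the filter, 0.04 with the replicate block and 0.07 without the deepest libraries, and -0.29 to 0.34 with single libraries left out. Without the deepest libraries MTHFD2 was at 0.08 between induced and 0.02 between uninduced groups, and with single libraries left out at -0.37 to 0.20 and -0.34 to 0.14. PSPH between uninduced groups ran between -0.31 and 0.31. For WT induction the ranges with single libraries left out were -0.29 to 0.05 for MTHFD1, -0.50 to 0.13 for MTHFD2, -0.05 to 0.58 for PSPH and -0.22 to 0.06 for MTHFD1L. The cause was not tested.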

Other observations

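MTHFD2L, the other mitochondrial dehydrogenase of this family, had 16 to 184 counts per library. Rows for processed copies of PSAT1, PSPH, SHMT1, MTHFD1 and MTHFD2 had at most 4 counts in any library. With S222A uninduced replicate 3 left out, the MYC difference between S222A induced and S222A uninduced libraries was -1.29 on the log2 scale (edgeR, adjusted p = 0.00613), whereas with all libraries it was -0.89 ± 0.38 (SE, adjusted p = 0.217). That replicate had the lowest MYC value, and no other alternative passed for this comparison (adjusted p = 0.15 to 0.625).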
